A study of Populus ussuriensis with 18 samples.

Results

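Genes whose mRNA was raised at 96 h of low nitrogen (LN) treatment, and at no other sampled time, were examined in roots of Populus ussuriensis, a poplar. Expression was given as FPKM, the fragments scaled by gene length and library total, and was put on the scale of log2(FPKM + 1). For each time point the mean over its 3 libraries was taken, and the mean of the control was subtracted. A gene was a member if this difference was 1.5 or more at 96 h and below 0.75 at 12, 24, 48 and 336 h. The rule found 49 of the 30485 genes. Since it used the differences from the control at all 5 times, these differences describe the members and were not tested.

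The whole root systems of clonally propagated in vitro plantlets were taken at 12, 24, 48, 96 and 336 h on LN medium (0.05 mM nitrate and 0.025 mM ammonium), and at 0 h, the control, from plantlets rooted on normal nitrogen medium (10 mM nitrate and 5 mM ammonium). Each of the 6 groups had 3 biological replicates, and each library is named here by its time and replicate number. All plantlets were wild type and were propagated as clones, and no source used here says whether a library pooled several plantlets. No library came from roots that stayed on normal medium up to the later times, and N supply and hours since transfer therefore changed together. The transfer to new medium also came before every LN group, and it cannot be told apart from N supply. The labels name 1 batch per time point, so the 96 h libraries share a batch name that no other group has, and the time point and the batch cannot be told apart. The reads were mapped to the genome of Populus trichocarpa, and the gene identifiers are those of that species.

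The 9 members with a description belong to protein folding or to transcription control, and 40 members have none. Small heat shock proteins (HSPs) hold unfolding proteins in solution without using ATP, HSP70 proteins refold them with ATP, and BAG proteins bind HSP70 and steer its cycle. Heat shock factors (HSFs) switch on such genes, and bZIP17 and bZIP60 are known in Arabidopsis thaliana to answer unfolded proteins in the endoplasmic reticulum. These genes are known from heat, salt, oxidative and other stresses that disturb proteins. The AP2/ERF, B3 and SBP families hold plant-specific transcription factors, and ERFs are known for roles in stress and hormone responses.

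Between 15945075 and 18193661 fragments per library were counted on genes. Across genes, which are not independent replicates, Pearson's r of the log2 values was 0.993 to 0.996 between replicates, but 0.939 for both pairs with replicate 3 of 48 h. Results that rest on this library are also given without it. Of the markers that could be matched, 3 copies of NPF7.3, known in A. thaliana as a root nitrate transporter, had means of 18.8 to 136 FPKM in the control. Both copies of CP29.2, a light-harvesting protein of green tissue, had 143 and 183 FPKM in the control, so that transcripts of a green tissue gene were present in these root libraries. In bulk roots, fewer cells of a type and less RNA per cell cannot be told apart.

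At 96 h the members stood several-fold above a control level close to that of the median gene. Their mean expression level in FPKM was 2.04 to 516 at 96 h (median 24.4) and 0.041 to 118 in the control (median 4.94, against 4.93 over all genes). The difference at 96 h was 1.51 to 4.93 on the log2(FPKM + 1) scale (median 1.8), which corresponds to ratios of FPKM of 2.97 to 176 (median 4.61). In 19 members the difference was 2 or more, and in 4 it was 3 or more. In all 49 members each of the 3 libraries of 96 h exceeded each of the other 15 libraries, and in 39 members the lowest 96 h library had at least 2 times the FPKM of the highest other library. The replicates of 96 h lay close together, with an SD of log2(FPKM + 1) of 0.049 as the median over members (highest 0.53), against 0.129 in the control (highest 0.43). Since the members' levels differed between these groups, the SDs are not read against each other.

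The 96 h libraries held 0.551%, 0.546% and 0.554% of their fragments in the 49 members. The control libraries held 0.130%, 0.131% and 0.132%. The 12 h libraries held 0.0964% to 0.0983%, the 24 h libraries 0.110% to 0.111% and the 336 h libraries 0.0886% to 0.0908%. The 48 h libraries held 0.134%, 0.130% and 0.0991%, where the lowest value is that of replicate 3. The 96 h libraries stood apart from all others, which the choice of the members had largely fixed. The 3 most abundant members, Potri.017G146600, Potri.010G206600 and Potri.014G149400, held 52.6% to 53.3% of the members' fragments at 96 h and 48.1% to 50.1% in the control, and their share carried the lower sums elsewhere. The other 46 members held 0.258% to 0.259% of the fragments at 96 h, against 0.0657% to 0.0676% in the control. They held 0.0763% to 0.0778% at 12 h, above the control, and 0.0651% to 0.0666% at 336 h. The median difference over the members was 0.18, 0.00, 0.30 and -0.09 for 12, 24, 48 and 336 h, against 0.09, 0.05, 0.04 and 0.16 over all genes.

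**Figure D1:**
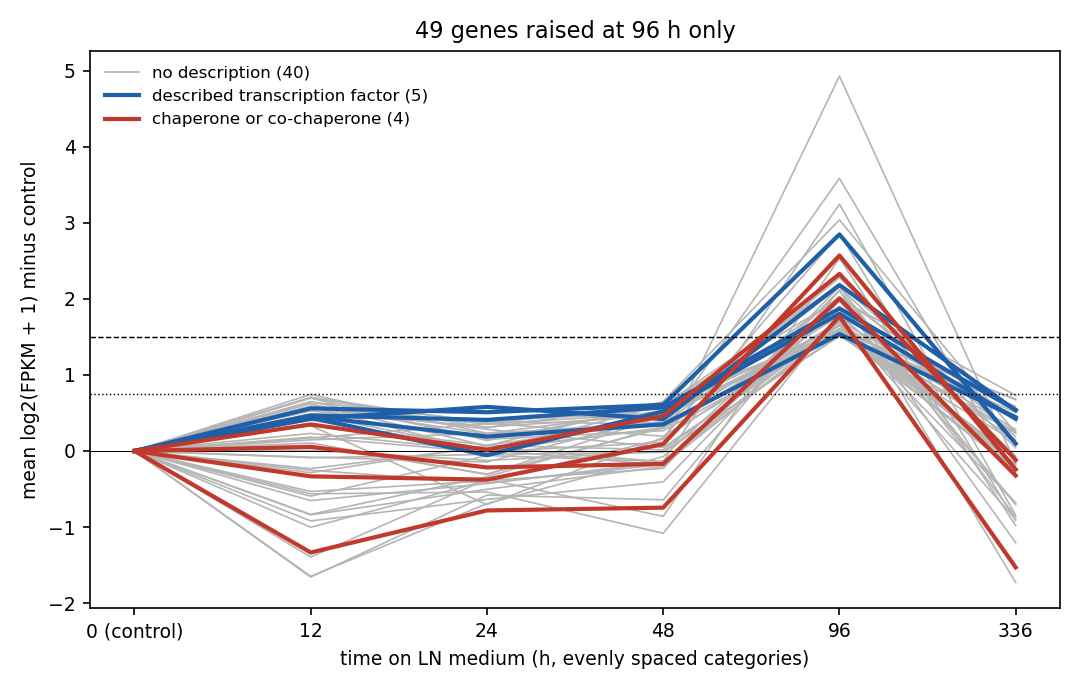
Difference of the mean log2(FPKM + 1) from the control (y axis, no error shown) at each time on LN medium (x axis, evenly spaced categories, in h), 1 line per member and n = 3 libraries per time. The dashed line at 1.5 and the dotted line at 0.75 are the thresholds of the rule. The 49 lines lie at 1.51 to 4.93 at 96 h, and some reach below -1 at 12 and 336 h.

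Most genes with a rise at 96 h were also raised at another time. In all, 810 of the 30485 genes had a difference of 1.5 or more at 96 h, and the members make up 6.05% of these 810. Of the 810 genes, 617 were also at 0.75 or more at 12 h, 488 genes at 24 h, 607 genes at 48 h and 453 genes at 336 h, and 104 were at 0.75 or more at exactly 1 other time. Differentially expressed genes (DEGs) were called with limma where the log2 fold change was 1 or more in size and p, adjusted by Benjamini-Hochberg over all genes tested, was under 0.05. By this call 8.18% of the 23363 genes tested were higher at 96 h than in the control and 1.84% were lower. All 49 members were among those called higher, which the rule had fixed. The same rule set for a single rise at 12 h found 4 genes, and for a single rise at 336 h it found 83. The 336 h genes had a lower level in the control, with a median of 1.44 FPKM and 38 of 83 genes below 1 FPKM, against 4.94 FPKM and 10 of 49 for the 96 h members. No gene listed further on as a small HSP, another chaperone or an HSF was among those 4 or 83 genes. The lists hold only genes with a description in the study's tables, which 0 of the 4 and 13 of the 83 genes have. The absence at 12 h was thus fixed by the descriptions, and nothing is read from that at 336 h.

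The thresholds cut through a continuum. The members nearest to the threshold at 96 h were Potri.006G197000, Potri.002G122900 and Potri.014G124500, at 1.51, 1.52 and 1.52, and the nearest genes outside it were Potri.008G130500, Potri.001G025400 and Potri.005G214000, at 1.48, 1.47 and 1.47. At the limit for the other times, Potri.019G128100 and Potri.002G065400 were members with 0.74 and 0.71 at 12 h, and Potri.013G079700 with 0.73 at 336 h. Potri.001G453800 was outside with 0.76 at 24 h, and Potri.011G053700 and Potri.005G257900, which encodes bZIP60, were outside with 0.77 and 0.78 at 12 h. Of the members, 22 lay between 1.5 and 1.75 at 96 h, and 48 genes under all other limits lay between 1.25 and 1.5. The number of members was 103 with a pseudocount of 0.1, of which 35 were among the 49. Under quantile normalization, which moved the median over all genes tested at 96 h to -0.07 from 0.13, it was 51, of which 33 were shared.

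Only 9 of the 49 members have a description in the supplementary tables of the study, and 40 have none. The described members are 4 chaperones or co-chaperones and 5 transcription factors. The tables from which the descriptions come list genes that the study chose on these samples. They cover nitrogen metabolism, reactive oxygen species, root development, phytohormones and transcription factors only. All 4 chaperones are listed there under reactive oxygen species and all 5 transcription factors under their own heading. Which themes appear among the members therefore depends on the topics covered. The members without a description are known by identifier only. The descriptions were not checked against sequence, and reads of close relatives within the heat shock and ERF families may have been divided between copies, which leaves single members of these families less certain.

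Among the chaperones, Potri.002G166300 encodes the co-chaperone BAG6, which is known in A. thaliana as a calmodulin-binding BAG protein. It had 17.5, 16.2 and 17.7 FPKM at 96 h, against 2.13, 2.07 and 1.95 FPKM in the control. Outside 96 h it did not exceed 2.45 FPKM, and its libraries of 12, 24 and 336 h, at 1.24 to 1.66 FPKM, all lay below the control. The difference in log2(FPKM + 1) was 2.57 at 96 h.

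Potri.010G088600 encodes heat shock 70 kDa protein 8, of the ATP-dependent HSP70 family. It had 10.1, 8.57 and 9.67 FPKM at 96 h, against 1.87, 1.5 and 1.45 FPKM in the control. At the other times its libraries ran between 0.870 and 1.79 FPKM, so its single high point was at 96 h, with a difference of 2.01.

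Potri.003G071100 encodes a 17.4 kDa class III small HSP, a class that is known from the nucleus in A. thaliana. It had 16.8, 15.2 and 15.2 FPKM at 96 h, against 2.33, 2.03 and 2.63 FPKM in the control, a difference of 2.33. Its 48 h libraries spread widely, with 2.28, 3.93 and 4.93 FPKM, and replicate 3 was the highest of them.

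Potri.010G053400 encodes a chloroplastic small HSP of 25.3 kDa, whose relatives protect plastid proteins. It had 34.8, 36.6 and 37.1 FPKM at 96 h, against 9.49, 11.2 and 9.14 FPKM in the control, a difference of 1.77. In the other LN groups it was below every control library, at 2.35 to 4.01 FPKM at 12 h, 5.27 to 5.49 FPKM at 24 h, 4.71 to 6.85 FPKM at 48 h and 1.89 to 3.33 FPKM at 336 h. Its profile thus ran below the control at 4 times and above it at 1. Both copies of the green tissue marker CP29.2 were likewise below every control library at all 4 of these times. Its copy Potri.006G099500 had means of 183, 55.2, 113, 84.2, 138 and 29.7 FPKM in the control and at the 5 LN times in order, and the copy Potri.016G115200 had 143, 75.4, 113, 68.7, 174 and 46.2 FPKM in the same order. At 96 h the mean of 1 copy was below and that of the other above the control, while the HSP was above it. The part of green tissue in the values of this HSP was not tested.

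Among the transcription factors, Potri.019G075500 encodes ERF021, an AP2/ERF factor. It had 6.04, 7.11 and 7.06 FPKM at 96 h, against 0, 0.110 and 0.108 FPKM in the control, which rest on 115, 135 and 131 fragments at 96 h and on 0, 2 and 2 fragments in the control. No library of another time exceeded 0.999 FPKM. The difference in log2(FPKM + 1) was 2.85, the largest of the described members.

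Potri.018G021900 encodes ERF003, also an AP2/ERF factor. It had 29.9, 30.2 and 28 FPKM at 96 h, against 8.36, 6.92 and 6.65 FPKM in the control, a difference of 1.87. At 12, 24 and 336 h its libraries lay between 9.49 and 11.5 FPKM, all above the control. At 48 h it had 12.6, 13.4 and 8.52 FPKM, and without replicate 3 its 48 h difference was 0.76, which would have put it outside the rule.

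Potri.016G032400 encodes bZIP17, which is anchored in the endoplasmic reticulum membrane in A. thaliana and released by cleavage. It was the most abundant described member, with 83.1, 80.0 and 83.9 FPKM at 96 h, against 28.5, 26.4 and 28.3 FPKM in the control. Its other libraries, at 30.4 to 38.9 FPKM, all exceeded the control and stayed far below 96 h. Its difference of 1.54 at 96 h was therefore near the threshold, with 0.19 to 0.45 at the other times.

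Potri.009G151600, of the SBP family, had 7.95, 8.78 and 8.72 FPKM at 96 h, against 1.04, 1.00 and 1.22 FPKM in the control, a difference of 2.18. SBP factors are known for the control of developmental phases and of flowering. At 48 h, replicates 1 and 2 had 2.34 and 2.64 FPKM and replicate 3 had 0.794 FPKM, so that its 48 h libraries fell on both sides of the control.

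Potri.004G220700, of the B3 family, was the least abundant described member and the least even one. It had 4.28, 1.55 and 2.56 FPKM at 96 h, from 36, 13 and 21 fragments, and the control libraries held 0, 0 and 1 fragment. B3 is the DNA-binding domain that auxin response factors and ABI3 also carry. With so few fragments, the size of its difference of 1.81 is uncertain and depends on the pseudocount of 1.

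**Figure D2:**
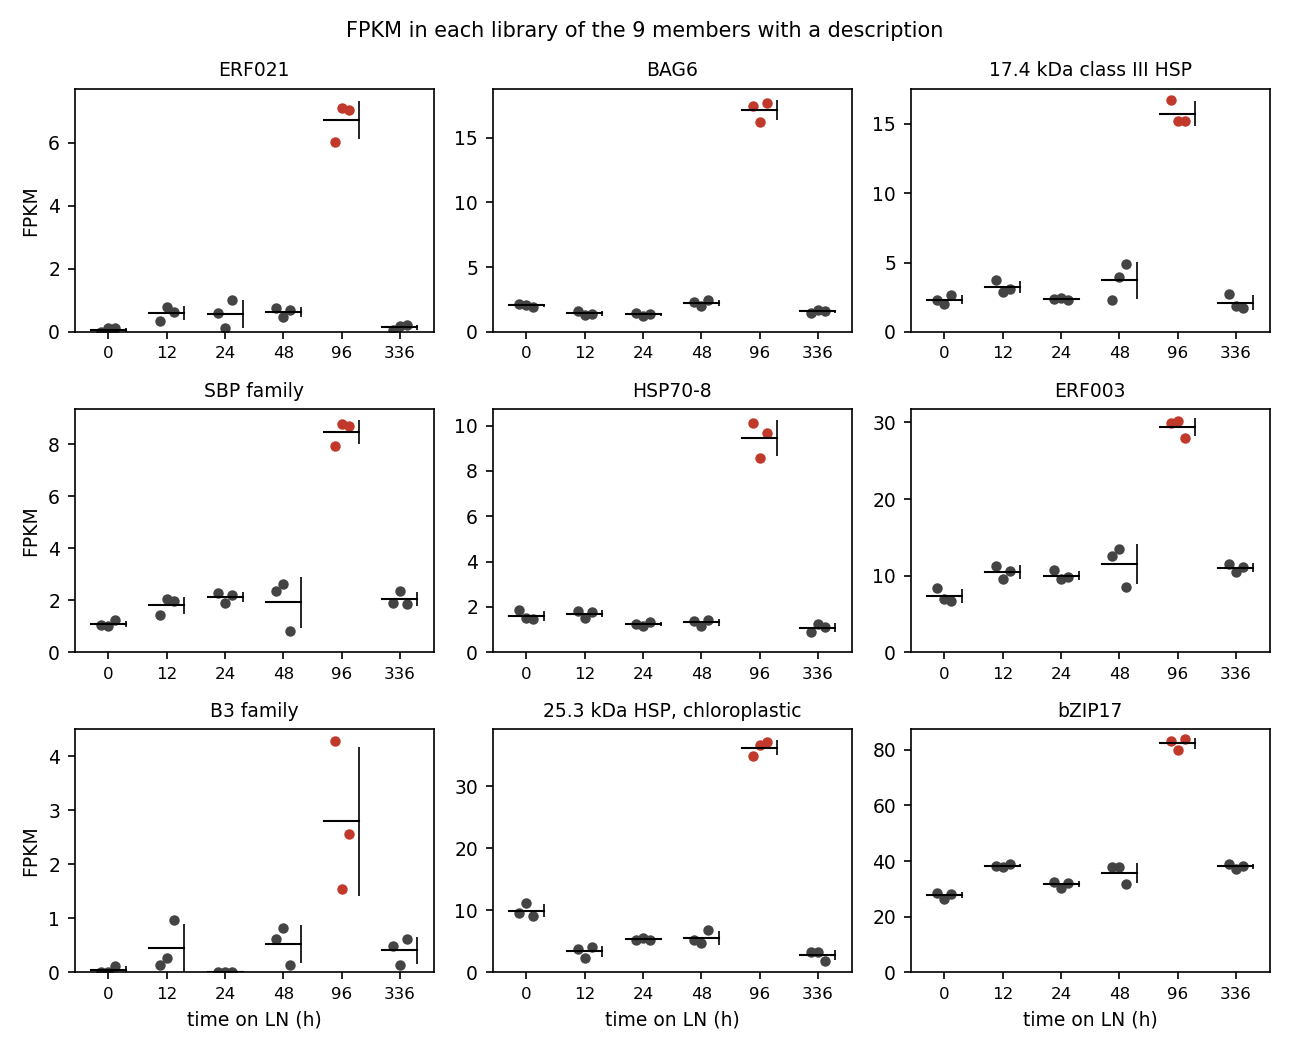
FPKM (y axis, linear from 0 and scaled per panel) in each of the 18 libraries for the 9 described members, by time on LN medium in h (x axis, 0 is the control). Points are libraries, red at 96 h, with horizontal lines for the mean and vertical lines for the SD (n = 3). In every panel the 3 libraries of 96 h lie above the other 15, with the widest relative spread at 96 h for the B3 gene, at 1.55 to 4.28 FPKM.

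The largest rises belonged to members without a description. Potri.012G022400 had 36.5, 36.9 and 33.8 FPKM at 96 h, against 0.224, 0.167 and 0.219 FPKM in the control, and no library of another time exceeded 0.986 FPKM. Its difference was 4.93, from 688, 693 and 621 fragments at 96 h and 4, 3 and 4 in the control. Its lowest 96 h library had 34.3 times the FPKM of its highest library of any other time, the widest such gap among the members.

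Potri.010G175200 had 33.2, 32.6 and 34.8 FPKM at 96 h, against 1.94, 1.58 and 2.13 FPKM in the control, a difference of 3.59. Potri.003G109200 had 112, 116 and 119 FPKM, against 9.68, 11.5 and 12.9 FPKM in the control, a difference of 3.25. Potri.019G081200 had 24.5, 24.3 and 24.3 FPKM, against 1.96, 1.57 and 2.87 FPKM in the control, a difference of 3.04. In each of these 3 genes, as in Potri.012G022400, the spread at 96 h was small beside the distance from the control. Potri.T125900, on a scaffold not placed on a chromosome, had 67.9, 69.1 and 66.3 FPKM at 96 h, against 8.09, 9.76 and 7.75 FPKM in the control, a difference of 2.86.

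The 3 most abundant members at 96 h were also without a description, and were named after their values were seen. Potri.017G146600 had 524, 500 and 524 FPKM at 96 h, against 114, 116 and 125 FPKM in the control. It had 39.2, 35.4 and 35.7 FPKM at 12 h and 33.8, 36.5 and 34.4 FPKM at 336 h, so the control lay between a low level at 12 and 336 h and a high level at 96 h. Potri.010G206600, the second in abundance, had 355, 360 and 357 FPKM at 96 h, against 84.8, 92.5 and 84.9 FPKM in the control. Its libraries had 26.9 to 27.5 FPKM at 12 h and 36.8 to 37.9 FPKM at 336 h, and at 48 h they lay on both sides of the control, with 110, 108 and 47.4 FPKM. Potri.014G149400, the third, had 235, 234 and 241 FPKM at 96 h, against 39.2, 39.7 and 41.0 FPKM in the control, and 15.2, 14.9 and 13.6 FPKM at 12 h. Like Potri.017G146600 it was below the control in every library of 12, 24, 48 and 336 h. In all, 8 members reached a mean of 100 FPKM or more at 96 h.

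Away from 96 h the members did not share 1 profile. Every library of 12 h lay below every control library in 16 members (32.7%, against 18.7% of all genes), and every library of 24 h in 15 (30.6%, against 16.2%). The count was 6 at 48 h (12.2%, against 12.2%) and 20 at 336 h (40.8%, against 15.4%). Every library lay above every control library in 22 members at 12 h (44.9%, against 39.1% of all genes), in 11 members at 24 h (22.4%, against 31.9%), in 13 members at 48 h (26.5%, against 21.3%) and in 11 members at 336 h (22.4%, against 44.8%). The rule used these differences and capped them from above, so nothing is read from these shares. Over all genes, a position below the control in every library of 12, 24, 48 or 336 h together with one above it in every library of 96 h was found in 4.42%, 2.79%, 1.36% and 2.31% of genes, and the rule fixed the 96 h side for the members. Under quantile normalization, an alternative added after seeing the data, 29 members lay below the control at 336 h and 8 above it at 48 h. Without replicate 3, 25 members lay above the control at 48 h.

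Some members were low early and late. In 12 members every library of 12 h and of 336 h lay below every control library (24.5%, against 8.51% of all genes), in 10 of them also every library of 24 h (20.4%, against 6.87%), and in 5 every library of all 4 times (10.2%, against 4.95%). Only BAG6 and the 25.3 kDa HSP of these 12 have a description. The 12 genes had control means of 2.05 to 118 FPKM, with differences of -1.66 to -0.33 at 12 h, 1.72 to 3.25 at 96 h and -1.73 to -0.18 at 336 h. Of the other members, bZIP17, ERF003 and further genes lay above every control library in FPKM at every LN time. For ERF003 this was narrow in replicate 3 of 48 h, at 8.52 FPKM against up to 8.36 FPKM in the control. The groups were picked by these values and were not tested. The rule had capped the members' differences at these times from above, which no limit did for all genes. Nothing is therefore read from the shares of 24.5%, 20.4% and 10.2% against those of all genes. At 12 h all 5 marker copies had every library below every control library, as had these 12 members. At 336 h both copies of CP29.2 and 2 of the 3 copies of NPF7.3 were again below every control library. The NPF7.3 copy Potri.001G145200 had means of 25.0 FPKM at 12 h and 81.0 FPKM at 336 h, against 136 FPKM in the control, and Potri.003G088800 had 7.90 and 36.5 FPKM, against 46.4 FPKM. The third copy, Potri.014G179400, had 6.42 FPKM at 12 h and 29.0 FPKM at 336 h, against 18.8 FPKM in the control. At 96 h, where the 12 members were above the control, these copies had means of 69.6, 15.9 and 8.57 FPKM in this order. All 3 NPF7.3 copies were then below every control library, and of CP29.2 1 copy was below and 1 above. The paper counts all 3 NPF7.3 copies among the nitrogen metabolism genes that changed under LN. For them, a response to N supply and a change in the share of root tissue cannot be told apart. At 12 h, the only time that is not a multiple of 24 h, the time of day cannot be told apart from these either. This holds at 12 h for CP29.2 and the members as well. The part of the markers' tissues in the low values of these members was not tested.

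**Figure D3:**
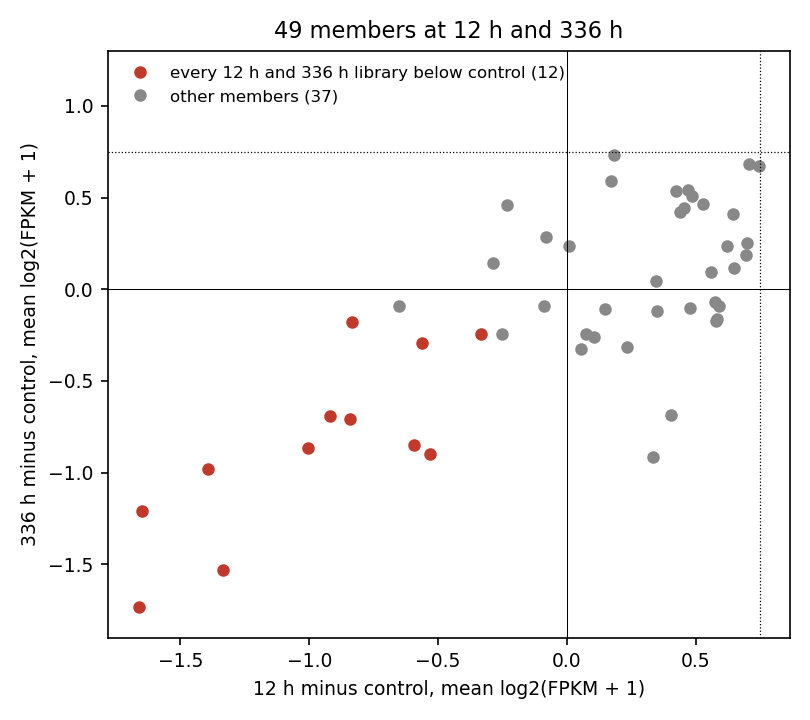
Difference of the mean log2(FPKM + 1) from the control at 12 h (x axis) and at 336 h (y axis) for the 49 members, with dotted lines at the limit of 0.75. Red points are the 12 members with every library of both times below every control library, and they reach -1.66 at 12 h and -1.73 at 336 h.

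The common peak at 96 h set how alike the members were. Across the 18 libraries, Pearson's r of each member with the mean of the others was 0.79 to 0.99 (median 0.93). Across the 15 libraries without 96 h it was -0.77 to 0.86 (median 0.33). The libraries of 1 time share that time, so these values describe the profiles only. On the chromosomes the members were scattered, with 48 of them on 17 chromosomes, at most 6 on 1 (chromosome 3), and no pair within 10 gene identifiers of each other. The smallest distance between a pair was 51 identifiers. Their gene lengths of 271 to 4224 bp had a median of 1326 bp, against 1707 bp over all genes.

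Replicate 3 of 48 h differed from replicates 1 and 2 in the members as well. It was below both in 30 members and above both in 14, and it was lower than their mean by 0.5 or more on the log2(FPKM + 1) scale in 16 members and higher by as much in 5. The median was -0.24 over the members and 0.07 over all genes. Replicates 1 and 2 lay within 0.5 of each other in 48 members. Without replicate 3 the rule found 44 genes, all of them among the 49. The 5 genes lost were ERF003, Potri.013G079700, Potri.018G097900, Potri.019G007700 and Potri.019G081200, whose 48 h differences were then 0.76 to 1.00.

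The LN times were also set against each other, in contrasts that hold neither control nor 96 h libraries. The rule used these times too and capped each below 0.75 over the control, which limits how far a member could be above another time. The counts and values, also those by p, therefore describe the members and test nothing about them. Between 24 h and 12 h, the 41 members that passed the filter on low values held 2 DEGs higher at 24 h (4.88%, against 1.35% of all genes tested) and 1 lower (2.44%, against 1.16%). Potri.017G146600 had 80.1, 79.2 and 76.7 FPKM at 24 h, against 39.2, 35.4 and 35.7 FPKM at 12 h, with a log2 fold change of 1.08 ± 0.06 (SE). Potri.014G149400 had 30.3, 29.7 and 31.9 FPKM at 24 h, against 15.2, 14.9 and 13.6 FPKM at 12 h, with a log2 fold change of 1.02 ± 0.06 (SE). Potri.T125900 went the other way, with 5.26, 4.35 and 4.90 FPKM at 24 h, against 9.90, 12.3 and 10.8 FPKM at 12 h, and a log2 fold change of -1.04 ± 0.09 (SE). All 3 lie near the fold limit, and leaving out 1 library moved the number called higher to 1 (without replicate 3 of 12 h or of 24 h) and the number called lower to 0 (without replicate 2 of 12 h or of 24 h). The time of day also differed in this contrast, since 12 h is the only time that is not a multiple of 24 h.

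By adjusted p alone, 10 of the 41 members were higher at 24 h than at 12 h (24.4%, against 16.4% of all genes tested) and 17 were lower (41.5%, against 26.4%). The median log2 fold change was -0.13 over these members and -0.06 over all genes tested. Both the members and all genes tested thus moved in both directions between these times, the members mostly by less than the fold limit. The rule had capped both times, so nothing is read from the members' shares.

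Between 336 h and 24 h the cap at 336 h largely fixed that members were not called higher, so their count is not read against all genes. Of the 41 members tested none was called higher with limma (4.42% of all genes tested were) and 1 was called lower (2.44%, against 3.63%). By adjusted p alone, 9 were higher (22.0%, against 35.9%) and 13 lower (31.7%, against 19%), and by an unadjusted p under 0.05 as well 9 were higher. The 1 called lower was Potri.017G146600, with 33.8, 36.5 and 34.4 FPKM at 336 h, against 80.1, 79.2 and 76.7 FPKM at 24 h, and a log2 fold change of -1.15 ± 0.06 (SE). With a pseudocount of 0.1 and with limma-voom on the fragments, 1 member was called higher, Potri.013G079700, the one nearest to the limit at 336 h. The median log2 fold change was 0.02 over the members and 0.11 over all genes tested. The calls rest on p-values that measure the spread between the libraries of this experiment, and the 8 members below the filter in each contrast were not tested.

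Other genes of protein folding are given from lists made by words in the descriptions of the study's tables, which list genes chosen on these samples, so that their counts are not independent evidence of direction. All 4 small HSPs listed were DEGs higher at 96 h than in the control, with a median log2 fold change of 2.05, against a median of 0.13 over all genes tested. Besides both members these are a mitochondrial HSP of 26.5 kDa (Potri.001G192600), with a difference of 3.25 at 96 h and of 1.01 at 12 h, which put it outside the rule, and a peroxisomal HSP of 15.7 kDa (Potri.017G130700). The peroxisomal HSP was at 1.34 at 96 h, -1.36 at 12 h and -1.41 at 336 h, next to 1.77, -1.34 and -1.53 for the chloroplastic HSP, a member.

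All 4 other chaperones listed were likewise DEGs higher at 96 h, with a median log2 fold change of 1.73. Besides BAG6 and HSP70-8 they are 2 neighbouring copies of ClpB1 (Potri.015G056900 and Potri.015G057000), of the family that pulls proteins out of aggregates, whose differences of 1.45 and 1.43 at 96 h were just under the threshold. Both genes listed for folding in the endoplasmic reticulum were called higher, bZIP17 and bZIP60, and bZIP60 was at 1.69 at 96 h and 0.78 at 12 h. The value at 12 h placed the 26.5 kDa HSP and bZIP60 outside the rule, and the value at 96 h the peroxisomal HSP and both copies of ClpB1.

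None of the 10 HSFs listed was a member. Of these, 7 were DEGs higher at 96 h, with a median log2 fold change of 1.07, but 3 were called after quantile normalization and 5 to 7 with 1 library left out. HSF B-3 (Potri.006G049200), of the class B that lacks the activation motif of class A, was at 1.4 at 96 h and also at 1.46 at 12 h and 1.99 at 336 h. HSF A-6b (Potri.008G157600), of class A, was at 1.25 at 96 h and between -0.48 and 0.27 at the other times. All 10 HSFs were below the threshold of 1.5 at 96 h, and 5 of them were at 0.97 to 1.99 at 336 h.

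**Figure D4:**
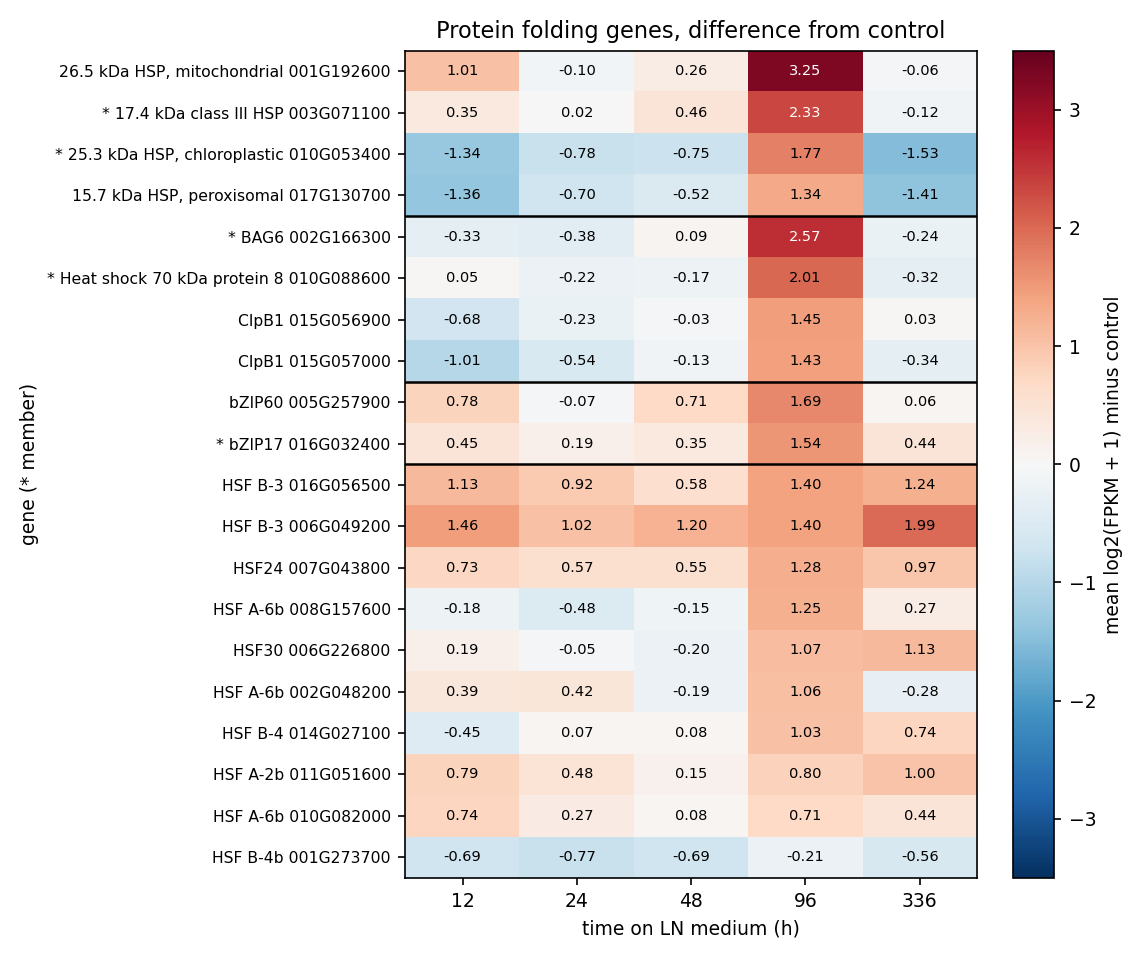
Difference of the mean log2(FPKM + 1) from the control (colour and printed value, n = 3 libraries per time) for the genes listed as small HSPs, other chaperones, endoplasmic reticulum folding and HSFs (rows, from top to bottom in these blocks) by time on LN medium in h (columns). Asterisks mark members. The chaperone rows are at 1.34 to 3.25 at 96 h, and the HSF rows at -0.21 to 1.4.

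Of the other lists, DREB2C (Potri.008G073600), a factor linked to heat and drought responses in A. thaliana, was called higher at 96 h but had a difference of 1.16 at 12 h. These lists too hold genes that the study chose on these samples, so nothing is read from their counts. Over all genes tested, 8.18% were called higher at 96 h and 1.84% lower, and 49 of all 30485 genes were members. Of the AP2/ERF factors, 43 of 71 tested were called higher and 1 lower, and 2 of the 89 listed were members. Of the MYB factors, 27 of 73 were called higher and 4 lower, and none was a member. Of the scarecrow-like GRAS proteins 6 of 11 were called higher, of the galactinol synthases 1 of 2 and of the expansins 1 of 1, with no member in any of them. Of the 3 ascorbate peroxidases limma called 0, though at an unadjusted p under 0.05 1 was higher and 2 were lower, and limma-voom called 1 higher with library totals, and 1 higher and 1 lower with TMM scaling.

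The rise at 96 h was also read in libraries that had no part in the choice. The rule was applied to the libraries of 2 replicate numbers in every group, and the values were read in the libraries of the remaining number, 96 h minus control. With replicate 1 held out, 55 genes were chosen (43 of them among the 49), and their rise in the held-out pair was 1.07 to 4.94 with a median of 1.75. With replicate 2 held out, 56 genes were chosen (42 shared), and the rise was 0.64 to 5.02 with a median of 1.91. With replicate 3 held out, 49 genes were chosen (39 shared), and the rise was 0.00 to 4.84 with a median of 1.79. A rise of 1 or more was seen in 55 of 55, 54 of 56 and 46 of 49 genes.

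The limits at the other times held less often. In the held-out libraries, 40 of 55, 33 of 56 and 40 of 49 genes had a rise of 1 or more at 96 h and stayed under 0.75 at all other times. The genes with a rise under 1 had low expression, at 0.033 to 2.12 FPKM in the control, and include a second B3 gene (Potri.004G220400), which had 0.562 FPKM in the held-out 96 h library against a mean of 1.93 FPKM at 96 h. The held-out libraries share the time points and batches of the others, so they show agreement between replicates only.

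**Figure D5:**
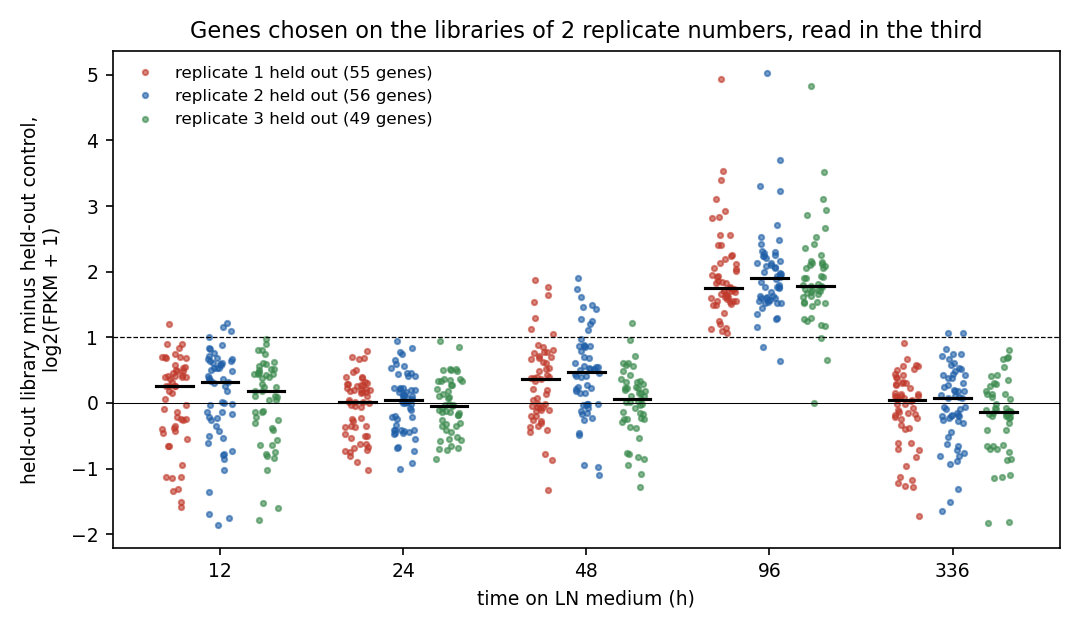
Difference of log2(FPKM + 1) between a held-out library of each time (x axis, h on LN medium) and the held-out control library (y axis), for genes chosen by the rule on the libraries of the other replicate numbers. Each point is 1 gene, colours give the held-out replicate number, black bars are medians and the dashed line marks 1. The medians at 96 h are 1.75, 1.91 and 1.79, while points at 48 h spread furthest above the limit at the other times.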

How the data were processed

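RNA was sequenced from roots in 18 libraries. The authors mapped the reads to the P. trichocarpa genome, per the paper with Bowtie2 and TopHat2 and per the submitters' processing notes with Bowtie2 2.2.3 and HISAT2 2.1.0, and deposited FPKM for 30485 genes. The sources used here name neither the counting tool nor its handling of strand and of reads of several copies. The authors called DEGs with DESeq2, which was not used here because the deposited values are FPKM.

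The members and the gene lists were chosen with earlier results of these data known. Named are the described members, the 5 undescribed members of largest rise, the genes nearest to the thresholds and list genes on which a count turns. Every value was a whole number of fragments within 0.001, so fragments, lengths and totals were recovered. With 3 libraries per group and totals of 15945075 to 18193661 fragments, precision is low for genes under 1 FPKM. On log2(FPKM + 1), 3 contrasts of 6 libraries each were fitted with limma (version 3.58.1, R version 4.3.3). A gene was tested where 3 or more of the 6 libraries had 1 FPKM or more, and p-values were adjusted over all genes tested by Benjamini-Hochberg. Fold changes on this scale understate those of low genes. Both steps were tested on simulated data. Alternatives were other pseudocounts, filters, scalings, limits and adjusted p, limma-trend, limma-voom on the recovered fragments (at least 10 in at least 3 libraries), a joint fit of all libraries, a replicate block and each library left out. Added after seeing the data were median-ratio scaling and the rescaled or reduced counts of members outside the range of the control. Figures were drawn with matplotlib 3.10.9 under Python 3.11.15.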

Additional observations from a re-analysis of the deposited data

Results flagged for a closer look

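Some members moved in opposite directions relative to the control at 96 h and at another time, with no overlap between the libraries. Every 96 h library was above and every library of the other time below every control library in 16 members for 12 h (32.7%, against 4.42% of all genes), in 15 members for 24 h (30.6%, against 2.79%), in 6 members for 48 h (12.2%, against 1.36%) and in 20 members for 336 h (40.8%, against 2.31%). The rule fixed the direction at 96 h and capped the other times from above, so nothing is read from these shares. Over all genes, the shares below the control without regard to 96 h were 18.7%, 16.2%, 12.2% and 15.4% at 12, 24, 48 and 336 h. In addition, the groups share their control libraries, and the difference was not tested. The 25.3 kDa chloroplastic HSP, Potri.017G146600 and Potri.014G149400 are among those counted at all 4 times, and BAG6 at 12, 24 and 336 h.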

How the results depend on the processing

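None of the counts and named fold changes turned its direction, whereas the median log2 fold change over all genes tested at 96 h turned to -0.07 after quantile normalization, from 0.13. The log2 fold changes at 96 h of the 16 named members kept their side of the thresholds in all 231 values under alternatives. A fit in which one of the 16 members did not pass the filter gave no value and is not counted. The members were chosen on this same contrast, so this outcome was largely fixed by the rule. The rule gave 103 genes with a pseudocount of 0.1, 19 with a rise of 2, 29 with a limit of 0.5, 42 with median-ratio scaling (added after seeing the data, 32 shared) and 44 to 55 with 1 library left out, and 35 of the 49 members were found in every such choice. DEGs at 96 h numbered 1912 higher and 429 lower. Those higher numbered 2976 with a pseudocount of 0.1, 1265 after quantile normalization, 3793 with limma-voom and library totals and 3049 with TMM scaling, which gave 829 lower. HSFs called were 3 after quantile normalization. Between 24 h and 12 h (312 higher, 268 lower) these settings gave 538 higher and 459 lower (pseudocount), 716 and 617 (limma-voom, totals) and 796 and 549 (TMM). Members called lower there were 0 after quantile normalization and 2 with either limma-voom, and with 1 library left out 1 to 2 were higher and 0 to 1 lower. Between 336 h and 24 h (1039 higher, 853 lower) limma-voom gave 1983 higher with totals and 1631 higher and 1565 lower with TMM. Members called higher there were 1 with a pseudocount of 0.1 and with either limma-voom, and 3 were lower with TMM. Members above the control at 48 h were 8 after quantile normalization, 7 with median-ratio scaling and 14 to 25 with 1 library left out. The median rise in the held-out libraries was 1.78 for replicate 2 and 1.67 for replicate 3 with a pseudocount of 0.1. Without any 1 library of 96 h, 39 members were called, since fewer genes then passed the filter. The cause of the other shifts was not tested.

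Same-numbered replicates did not deviate together (r of -0.08 to 0.10 across genes), so the numbers name libraries only. With a replicate block, DEGs were 1912 higher and 428 lower at 96 h, 312 and 268 for 24 h against 12 h, and 1039 and 853 for 336 h against 24 h, and no member changed its call.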
